A study of Mus musculus with 16 samples.

Results

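The results below describe DNA methylation at 5 genes in mouse oocytes: the DNA methyltransferase genes Dnmt1, Dnmt3a, Dnmt3b and Dnmt3l, and Uhrf1. They are 5 of the 21951 protein-coding genes of the annotation. They were taken by name, not by any measured value, though earlier results of these data were known. Each gene body was quantified apart from its promoters, and each annotated start was given a window of 1 kb on either side, which gave 25 of the 49933 promoter windows of the genome. The genes were also covered by 43 of 218667 tiles, runs of 100 consecutive CpGs. Whole-genome bisulphite libraries were made by post-bisulphite adapter tagging (PBAT), a method for small inputs in which adapters are added after the conversion step. All oocytes came from C57BL/6J X CBA/Ca F1 females, were at metaphase II (MII), kept their polar bodies and were pooled, so that 1 library is 1 pool. The IFC group (4 libraries) came from preantral follicles of 13-day-old females grown for 10 days in culture, so that their labelled age is 23 days. The culture held follicle-stimulating hormone, and the oocytes were matured there with human chorionic gonadotropin and epidermal growth factor. The SO group (5 libraries) was superovulated at 23 days with 2.5 IU of equine chorionic gonadotropin and, 48 h later, the same dose of the human hormone. The SOA group (4 libraries) was superovulated at 10 weeks with 5 IU of each, so age and dose differ together between SO and SOA. Between IFC and SO, culture and hormones differ together, and between IFC and SOA age differs as well. The IV group (3 libraries) ovulated naturally at 10 weeks without hormones, after contact with male pheromones.

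The 5 genes encode the machinery that writes CpG methylation. Dnmt1 copies methylation to the new strand after replication, and Uhrf1 binds half-methylated sites and brings Dnmt1 to them. Dnmt3a and Dnmt3b add methylation to unmethylated DNA, and Dnmt3l has no catalytic activity of its own but stimulates Dnmt3a. Growing oocytes gain methylation mainly over transcribed gene bodies, while most promoters rich in CpGs stay unmethylated, and Dnmt3a with Dnmt3l is needed for that gain. Several of these genes are known to use a separate start in the oocyte: a Dnmt1 form shortened at its N terminus, a short Dnmt3a form that starts inside the gene, and a Dnmt3l transcript that starts within the neighbouring gene Aire.

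The libraries held between 5218053 and 23065411 calls, a call being 1 read of a cytosine as methylated or unmethylated. Per group the ranges were 5311009 to 8231898 (IFC), 5247001 to 19660161 (SO), 5218053 to 23065411 (SOA) and 15644144 to 17275310 (IV), so depth differed between the groups. Between 65.5% and 91.5% of the covered positions had a single call. The percentage of a region in a library was the mean over its covered positions, with at least 5 of them. Library IV1 stood apart: tiles below 10% in the other libraries averaged 12.9% there, against 4.03 to 7.92% in the other 15. Tiles above 90% averaged 91.0% in IV1, against 92.8 to 95.2%. The paper suspected a slight contamination of IV1 by DNA of somatic cells and kept the library. This was not tested here. SOA3 gave a value in 13 of the 25 promoter windows, whereas the others gave 21 to 25, and 7 windows had a value in all 16 libraries. Of 10 maternally methylated imprinted genes, 4 have a single start, and its window had 84.9% (Peg10) to 96.8% (Kcnq1ot1) pooled methylation. Peg10 was above 80% in 8 of 14 libraries and lowest in IV1, at 56.3%. The other 6 genes have 28 starts, of which 21 were above 80%, 6 below 20% and 1 between, and each gene had at least 1 start above 80%. A window upstream of H19, methylated on the paternal copy of somatic cells, had 0 to 6.06% in 15 libraries.

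The sequences below show why the starts were taken one by one. Each runs from 250 bases before to 50 bases after a start in RefSeq (GRCm38.p6), with every CpG in capitals. The 2 starts of Dnmt1 lie on the minus strand at chr9:20959839-20960138 and chr9:20952930-20953229. The others lie on the plus strand at chr12:3806730-3807029 (Dnmt3a), chr2:153649199-153649498 (Dnmt3b) and chr17:56303087-56303386 (Uhrf1).
Dnmt1 start 1: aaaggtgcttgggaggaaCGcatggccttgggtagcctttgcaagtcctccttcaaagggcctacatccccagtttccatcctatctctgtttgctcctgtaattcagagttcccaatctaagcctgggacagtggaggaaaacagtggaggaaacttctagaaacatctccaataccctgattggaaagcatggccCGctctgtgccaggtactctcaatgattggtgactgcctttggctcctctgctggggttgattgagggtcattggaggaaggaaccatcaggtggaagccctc
Dnmt1 start 2: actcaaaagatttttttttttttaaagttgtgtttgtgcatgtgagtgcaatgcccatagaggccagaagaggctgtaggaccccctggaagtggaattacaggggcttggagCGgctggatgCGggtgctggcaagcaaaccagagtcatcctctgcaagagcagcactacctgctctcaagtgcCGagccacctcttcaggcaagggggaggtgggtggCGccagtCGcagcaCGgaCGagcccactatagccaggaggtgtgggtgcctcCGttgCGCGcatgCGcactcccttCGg
Dnmt3a start 1: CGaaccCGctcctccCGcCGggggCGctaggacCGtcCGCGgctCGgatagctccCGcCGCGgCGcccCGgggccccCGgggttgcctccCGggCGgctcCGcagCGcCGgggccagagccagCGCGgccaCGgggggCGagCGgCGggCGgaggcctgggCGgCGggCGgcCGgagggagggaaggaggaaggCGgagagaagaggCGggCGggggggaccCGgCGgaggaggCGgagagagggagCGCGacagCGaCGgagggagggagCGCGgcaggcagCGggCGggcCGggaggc
Dnmt3b start 1: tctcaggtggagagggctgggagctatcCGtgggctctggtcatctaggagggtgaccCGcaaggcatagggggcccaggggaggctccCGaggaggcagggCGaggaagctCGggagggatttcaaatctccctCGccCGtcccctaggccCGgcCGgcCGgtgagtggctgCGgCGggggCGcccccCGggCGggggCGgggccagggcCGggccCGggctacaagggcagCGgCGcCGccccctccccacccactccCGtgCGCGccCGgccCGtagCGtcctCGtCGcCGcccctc
Uhrf1 start 1: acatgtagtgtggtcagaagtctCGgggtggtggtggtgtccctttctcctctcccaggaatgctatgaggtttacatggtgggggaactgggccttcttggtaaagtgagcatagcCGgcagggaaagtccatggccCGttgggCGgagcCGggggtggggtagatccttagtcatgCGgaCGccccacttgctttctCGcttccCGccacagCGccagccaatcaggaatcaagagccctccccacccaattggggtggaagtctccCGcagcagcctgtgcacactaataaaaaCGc
The first Dnmt1 sequence has 2 CpGs and the second has 12. Over all libraries 3 of 25 calls were methylated in the first and 99 of 103 in the second. The Dnmt3a sequence has 46 CpGs, more than 98.4% of the 32851 promoters of the same length, and 2 of 199 calls were methylated. The Dnmt3b sequence has 30 CpGs, more than 88.3% of promoters, and 89 of 96 calls were methylated. In the Uhrf1 sequence, with 12 CpGs, 1 of 136 calls was methylated. The GC box GGGCGG, searched on both strands, is in 35.7% of promoters. It occurred 6 times in the Dnmt3a sequence, 4 times in the Dnmt3b sequence, once in the Uhrf1 sequence and in neither Dnmt1 sequence. The 2 CpG-dense promoters that both hold the box therefore stood at opposite ends of the methylation scale. The same contrast between starts of a single gene was found in Dnmt3l, where 0 of 52 calls were methylated at the first start (chr10:78042037-78042336, 6 CpGs) and 24 of 25 at the second (chr10:78049592-78049891, 4 CpGs).

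In the 2 kb windows around all annotated starts, 7 of 25 had less than 20% pooled methylation, 18 had more than 80% and none lay between. Over the genome, 82.0% of 20980 first starts were below 20% and 6.50% above 80%. Of 27585 later starts, 28.1% were below 20% and 56.1% above 80%. The highest of the low windows had 16.4% and the lowest of the high windows 81.4%. All 7 low windows start at least 1 protein-coding transcript, as do 9 of the 18 high ones. The other 9 high windows belong to transcripts annotated without a coding sequence.

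**Figure D1:**
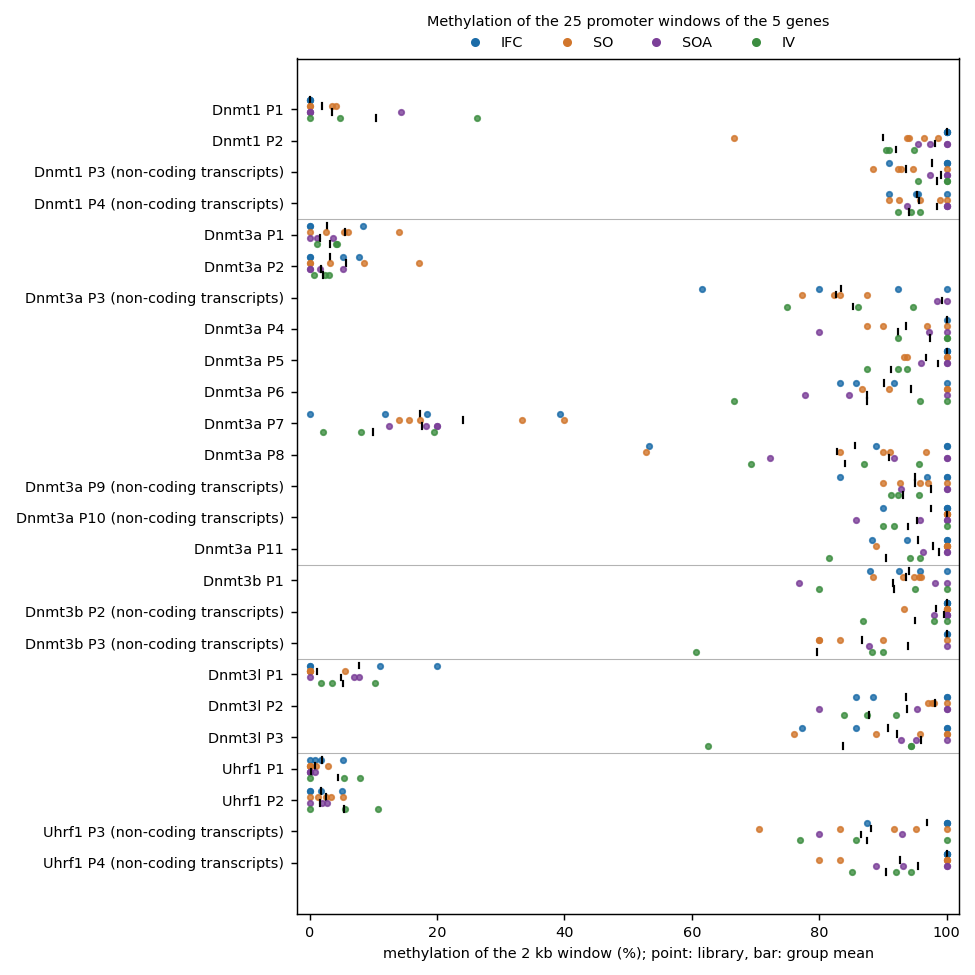
Methylation of each of the 25 promoter windows (y axis, numbered in the direction of transcription) in percent (x axis), with 1 point per library coloured by group and a black bar at each group mean. The 7 low windows reach at most 40% in any library, the 18 high windows go down to 52.7% in 1 library, and the groups lie over each other in almost every window.

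Of the maintenance genes, Dnmt1 had 1 low and 3 high windows. The first window, P1 (chr9:20958888-20960888, 28 CpGs), starts 1 transcript, Dnmt1-202, whose coding sequence gives 1501 residues, and had 3.16% methylation (9 of 285 calls, 95% Wilson interval 1.67 to 5.89%, which covers counting error only). The second, P2 (chr9:20951979-20953979, 75 CpGs), lies 6909 bases further on in an intron, starts Dnmt1-201 with 1620 residues and 2 transcripts with 1501 and 1502, and had 94.5% (572 of 605 calls, interval 92.4 to 96.1%). The window of the form with 1620 residues was thus methylated and that of Dnmt1-202 was not, in all 4 groups. In P1 the IFC libraries with a value had 0, 0 and 0%, the SO libraries 4.17, 0, 3.57 and 0%, the SOA libraries 0, 0, 14.3 and 0%, and the IV libraries 26.3, 4.76 and 0%. The 2 highest values were those of SOA3 and IV1, the libraries named above. In P2 the IFC libraries had 100% each, the SO libraries 66.7, 94.1, 96.4, 98.7 and 93.8%, the SOA libraries 100, 97.4, 100 and 95.4%, and the IV libraries 90.4, 91.0 and 94.9%. Uhrf1 had low methylation in its overlapping windows P1 (chr17:56302321-56304321, 1.85%, 24 of 1299 calls) and P2 (3.04%, 40 of 1314 calls), of which P1 starts forms of 782 and 774 residues and P2 forms of 782 and 146. Its windows P3 and P4, at starts of non-coding transcripts, had 90.9% and 93.0%.

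Of the de novo genes, Dnmt3a had 3 low windows among 11. P1 and P2 overlap at the 5′ end (chr12:3805007-3808030 together) and had 3.84% (28 of 729 calls) and 3.75% (48 of 1281 calls). P2 holds 259 CpGs and starts the long form of 908 residues. P7 (chr12:3890728-3892728, 74 CpGs), an intronic window 85721 bases downstream, starts the form of 689 residues and had 16.4% (76 of 464 calls, interval 13.3 to 20.0%). Its IFC libraries had 11.8, 18.4, 39.3 and 0%, its SO libraries 33.3, 40, 15.6, 17.3 and 14.0%, its SOA libraries 20.0, 12.5, 20.0 and 18.3%, and its IV libraries 8.06, 19.6 and 2.17%. These values overlap between all groups. Methylation within P7 was uneven: the 25-CpG bin centred 86.0 kb from the first start had 1.12%, and the bin centred at 85.4 kb had 22.4%. The next start, P8 (chr12:3893824-3895824), had 81.4%.

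Dnmt3b differed from Dnmt3a at its only coding start. P1 (chr2:153648450-153650450, 131 CpGs) starts all 10 annotated coding transcripts and had 90.5% methylation (732 of 809 calls, interval 88.3 to 92.3%). The IFC libraries had 95.7, 100, 92.6 and 88.0%, the SO libraries 88.5, 95.7, 94.8, 93.1 and 96.0%, the SOA libraries with a value 100, 76.8 and 98.1%, and the IV libraries 80, 100 and 95.1%. Every library with a value was above 76%, and the groups overlapped. Among first starts of all genes, 82.0% of 20980 were below 20% and 6.50% were above 80%. Among the 5326 first starts with at least 100 CpGs, 96.1% were below 20% and 0.695% above 80%. The Dnmt3b promoter is thus in the small class of CpG-dense first starts with high methylation in these oocytes. The antisense gene Dnmt3bos overlaps this window, and these libraries do not tell which strand is transcribed.

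Dnmt3l, the cofactor, had a low first window and 2 high ones. P1 (chr10:78040947-78042947, 32 CpGs) lies within Aire on the opposite strand, overlaps an Aire start, begins a form of 421 residues and had 4.20% (15 of 357 calls, interval 2.56 to 6.82%). P2, 7895 bases downstream, begins transcripts with the same coding length and had 93.7% (311 of 332 calls), and P3 had 90.6% (260 of 287 calls). In P1 the IFC libraries had 11.1, 0, 0 and 20.0%, the SO libraries 0, 0, 0, 5.56 and 0%, the SOA libraries with a value 0, 7.69 and 6.91%, and the IV libraries 10.3, 3.57 and 1.79%. In P2 no library was under 80%. Aire itself, a regulator of antigen display in the thymus, had 27.7% at its first start and 78.0% over its gene body.

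**Figure D2:**
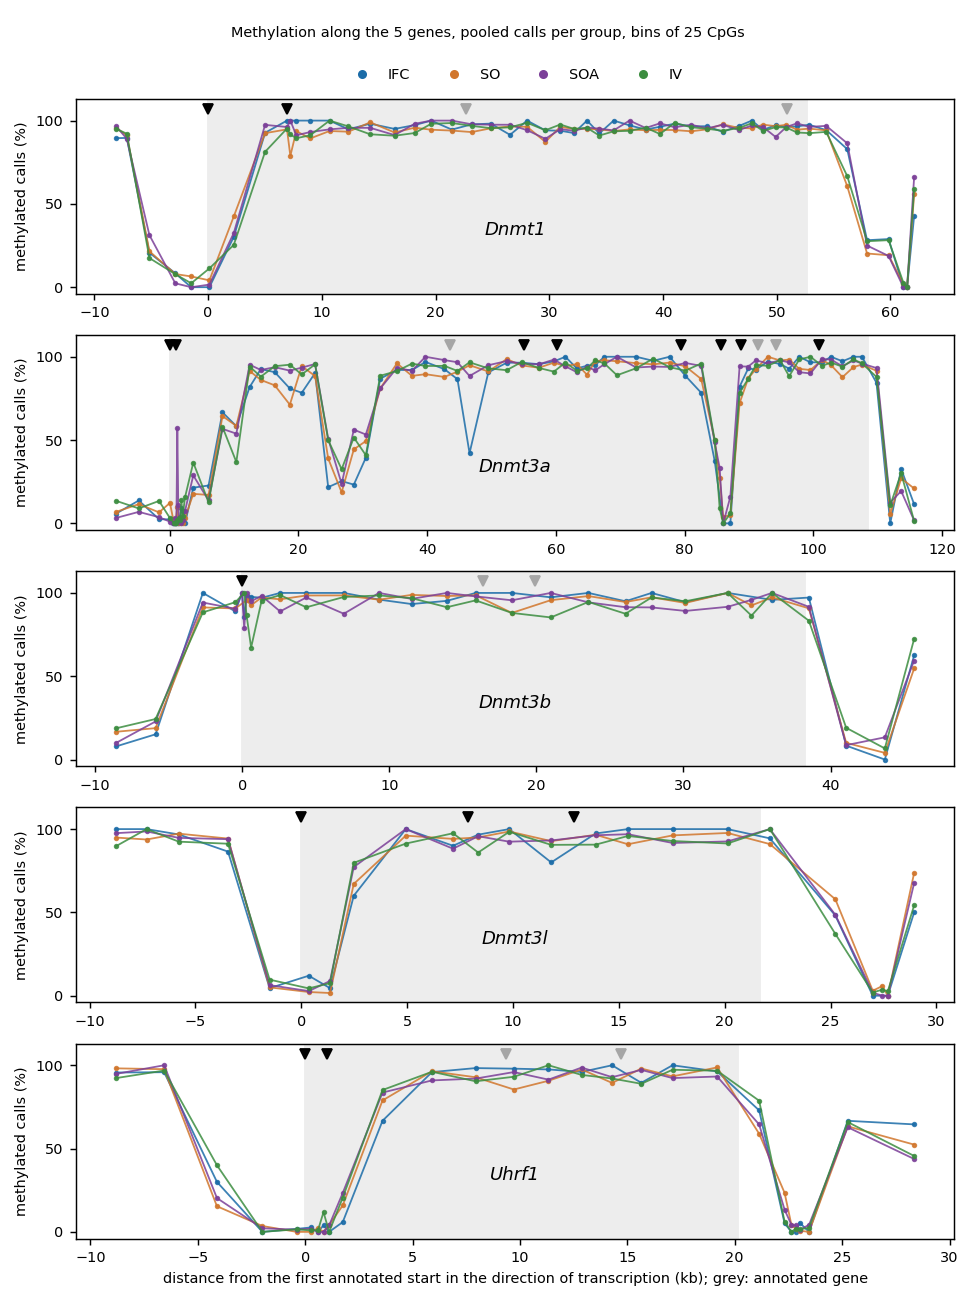
Pooled methylated calls per group (y axis, percent) in bins of 25 CpGs against the distance from the first annotated start (x axis, kb) for each gene, drawn where a group has at least 10 calls, with triangles at annotated starts (black coding, grey non-coding) and the annotated gene in grey. Dnmt1, Dnmt3a, Dnmt3l and Uhrf1 start low and rise above 80% within the gene, and Dnmt3b is high from its start. In a Dnmt3a intron at 46.6 kb the pooled calls dip in IFC only, though library SOA2 was low there too.

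The profiles along the genes show where methylation rose after the first start. In Dnmt1 the last bin below 20% was centred 0.118 kb from the first start and the first above 80% at 5.01 kb. In Dnmt3l these were 1.36 and 4.93 kb, in Uhrf1 1.75 and 5.90 kb, and in Dnmt3a 6.07 and 12.4 kb. All 20 Dnmt3b bins within the gene were above 80% when the libraries were pooled. In 4 genes, therefore, the rise to high methylation lay inside the gene, and it lay furthest from the first start in Dnmt3a. Dnmt3a was not low all the way to 6.07 kb, as its bin centred at 3.69 kb had 26.4%. In IFC its last bin below 20%, among those with at least 20 calls, was centred at 1.07 kb. Dnmt3a also had an intermediate stretch, with 25 to 46.2% in the 4 bins centred between 24.6 and 30.5 kb. The second low stretch of Dnmt3a was that at P7. The 10 kb upstream of the Dnmt3a window had 8.02% methylation, against 79.1% upstream of Dnmt3l, which lies in Aire.

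Gene bodies, here the annotated spans without the promoter windows, were highly methylated. Pooled over all libraries, Dnmt3b had 96.1% (2826 of 2942 calls), Dnmt1 93.1% (7272 of 7810), Uhrf1 91.6% (1862 of 2033), Dnmt3l 81.0% (1611 of 1988) and Dnmt3a 78.7% (7837 of 9954). The median of 16306 gene bodies was 73.3%, and 43.7% of them were above 80%. Dnmt3b was higher than 99.0% of them, Dnmt1 than 86.7%, Uhrf1 than 81.1%, Dnmt3l than 57.4% and Dnmt3a than 54.9%. Exons were at 90.6 to 96.9% in all 5 genes. Introns ranged from 76.7% in Dnmt3a and 77.2% in Dnmt3l to 95.8% in Dnmt3b, so the order of the gene bodies followed the introns. Over the 16 libraries the ranges of Dnmt3b (93.3 to 99.0%), Dnmt1 (89.2 to 96.1%) and Uhrf1 (86.1 to 98.5%) overlapped, as did those of Dnmt3l (71.9 to 88.1%) and Dnmt3a (72.7 to 85.2%). No Dnmt3a value reached the lowest value of Dnmt3b, Dnmt1 or Uhrf1. Dnmt3c, a de novo gene next to Dnmt3b known for its action in male germ cells, had 93.4% over its body.

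**Figure D3:**
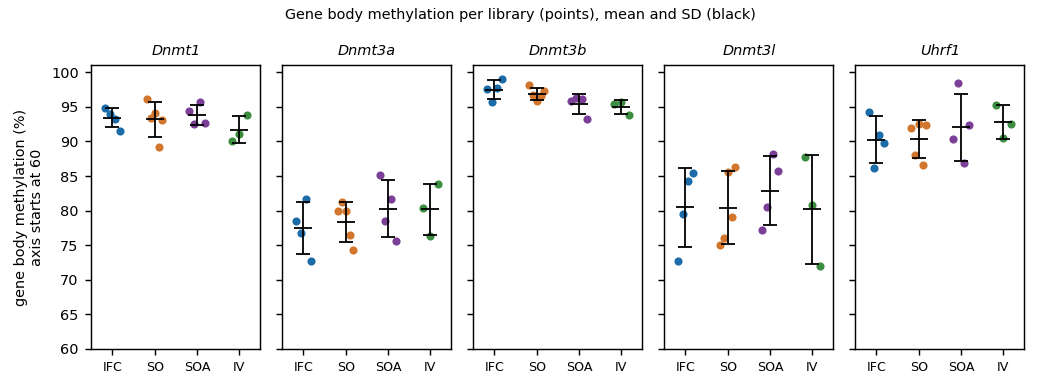
Gene body methylation in percent (y axis, from 60) for the 4 groups (x axis), with 1 coloured point per library and the mean and SD in black. The groups overlap in every gene except Dnmt3b. There the 3 IV libraries (at most 95.7%) lie just below all IFC and SO libraries, a separation whose share over all gene bodies is not known. Dnmt3b has the narrowest range, from 93.3 to 99.0%.

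Between groups the gene bodies differed little. In Dnmt3b the IFC libraries had 97.6, 95.8, 97.7 and 99.0%, the SO libraries 98.2, 96.7, 95.9, 96.6 and 97.3%, the SOA libraries 95.8, 96.3, 96.2 and 93.3%, and the IV libraries 95.4, 95.7 and 93.8%. IFC and SO lay towards the top and SOA and IV towards the bottom. SOA overlapped all other groups. The highest IV library (95.69%) lay just below the lowest of IFC (95.77%) and SO (95.89%). IV was not compared with IFC or SO over all gene bodies, so the share that lies apart in this way is not known. The means were 97.5% ± 1.33 (SD, n = 4), 96.9% ± 0.852 (n = 5), 95.4% ± 1.41 (n = 4) and 95% ± 0.999 (n = 3). SO exceeded SOA by 1.52 points ± 0.802 (SE), with an adjusted p of 0.146 by the logistic test. The 2-sided exact permutation p was 0.0476, and 10.0% of all gene bodies had an exact p under 0.05. The logistic test models the methylated and unmethylated calls and adjusts by Benjamini and Hochberg over all features of the kind, with 0.05 as the threshold.

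The follicle culture comparison, IFC against SO, sets cultured oocytes beside superovulated ones of the same age. None of the 5 gene bodies passed the test, against 10.2% of 16808 gene bodies, and the differences ran from -0.946 (Dnmt3a) to 0.603 points (Dnmt3b), with a median of 0.0551 beside 0.457 for all gene bodies. None had an exact p under 0.05, where 7.78% of all gene bodies did, and none was called with a difference of at least 20 points, the size the study set besides the test, where 0.631% were. The comparison of age and dose, SO against SOA, also called 0 of 5, against 16.1% of 16483, with differences from -2.51 to 1.52 points and none called at 20 points (1.13% of all). Superovulated against natural, SOA against IV, called 1 of 5, against 15.4% of 16852, none at 20 points (0.160% of all) and none with an exact p under 0.05 (3.10% of all). The called gene was Dnmt3l, with 77.2, 80.6, 88.1 and 85.7% in SOA and 87.7, 80.9 and 71.9% in IV, groups that overlap. Its difference was 2.73 points ± 5.20 (SE), with an adjusted p of 0.0303 by the logistic test and an exact permutation p of 0.60. Without IV3 the difference was -1.39 points, and without IV1, the library standing apart, 6.51 points. IFC against SOA called 1 of 5, against 19.9% of 16546, again Dnmt3l, with none at 20 points (2.38% of all) and none with an exact p under 0.05 (8.75% of all). Its IFC libraries had 72.7, 79.5, 84.2 and 85.4%, which overlap SOA. The difference was -2.45 points ± 3.80, with an adjusted p of 0.0486 by the logistic test and an exact permutation p of 0.51, and it was 0.121 points without IFC1. The share of all gene bodies called in SOA against IV also rested on IV1 and was 3.55% without it. In no comparison did the groups of a member gene body lie apart, where 3.25%, 4.85%, 6.18% and 8.75% of all gene bodies did in the order given. Both Dnmt3l calls thus rested on single libraries and were within the spread between libraries.

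Of the promoter windows, IFC against SO could be tested in 15, and 1 passed, against 4.61% of 21005 windows. This was Dnmt1 P2, the start of the form with 1620 residues, where the IFC and SO libraries, given above, do not overlap. IFC exceeded SO by 10.1 points ± 5.88 (SE; adjusted p of 0.0352 by the logistic test, exact permutation p of 0.0556). SO1, at 66.7%, was far below the other SO libraries, and without it the difference was 4.26 points with an adjusted p of 0.238. Leaving out any IFC library also ended the call. SO against SOA could be tested in 7 windows and called 1, against 5.39% of 17797: Dnmt3a P8, where the SO libraries had 90, 83.3, 52.7, 96.8 and 91.1% and the SOA libraries 91.7, 72.2, 100 and 100%. The groups overlapped, with a difference of -8.19 points ± 10.2 (SE; adjusted p of 0.0010, exact permutation p of 0.516), and without SO3 the difference was -0.678 points. SOA against IV called 0 of 11 windows, against 4.10% of 21709 (2.08% without IV1), and IFC against SOA 0 of 10, against 6.09% of 17480. Windows whose groups did not overlap numbered 1, 0, 1 and 0 in the 4 comparisons, against 1.60%, 1.60%, 5.82% and 3.04% of all windows. The second was again Dnmt1 P2, with 95.4 to 100% in SOA and 90.4 to 94.9% in IV, a difference of 6.08 points that did not pass (adjusted p of 0.314 by the logistic test, exact permutation p of 0.0571). At an exact p under 0.05 no member window passed in any of the 4 comparisons, where 4.76%, 4.57%, 3.95% and 3.04% of all windows did. None was called at 20 points either, where 1.43%, 1.35%, 0.640% and 2.55% of all windows were. In Dnmt3a P2, Dnmt3a P7 and Uhrf1 P1, the low windows tested in all 4 comparisons, differences ran from -6.69 to 7.76 points and none passed. Single libraries lay above 20% in Dnmt3a P7, namely SO1 (33.3%), SO2 (40%) and IFC3 (39.3%). In Uhrf1 P1 the IV libraries had 5.40, 0 and 7.96% and the SOA libraries 0, 0, 0 and 0.896%, a difference of -4.23 points (adjusted p of 0.0755 by the logistic test, exact permutation p of 0.143).

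The tiles gave the only called differences near 20 points. None reached it, where 1.12%, 1.87%, 0.350% and 3.83% of all tiles were called at that size in IFC against SO, SO against SOA, SOA against IV and IFC against SOA. In IFC against SO, 3 of 41 tiles were called, against 4.46% of 199125, and 6 had an exact p under 0.05, against 7.05%. In SO against SOA 2 of 39 were called, against 9.00% of 197305, in SOA against IV 0 of 39, against 6.46% of 199809 (1.24% without IV1 and 12.1% without IV3), and in IFC against SOA 4 of 39, against 11.4% of 197553. At an exact p under 0.05 these comparisons had 2 (8.78% of all tiles), 0 (3.93%) and 3 (7.31%). By the logistic test, calls in SO against SOA, SOA against IV and IFC against SOA were thus no more frequent in the 5 genes than in all tiles. Tiles whose groups did not overlap numbered 1, 0, 0 and 3 in the 4 comparisons, against 2.74%, 3.80%, 6.61% and 7.31% of all tiles. The calls fell on 7 tiles: 3 in Dnmt3a, 2 in Dnmt1 and 1 each in Dnmt3l and Uhrf1.

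The most separated tile lay in an intron of Dnmt3a, chr12:3850138-3859793, from 44.1 to 53.8 kb after the first start, with no exon of a protein-coding transcript and the end of the antisense gene Dnmt3aos in it. The IFC libraries had 76.4, 73.3, 81.7 and 68.8%. The SO libraries had 88.9, 96.7, 98.4, 98.8 and 86.5%. The SOA libraries had 96.3, 86.8, 97.8 and 95.6%, and the IV libraries 88.7, 94.3 and 94.9%. All 4 IFC libraries lay below all 12 others. The share of all tiles with this pattern is not given, and IFC was not compared with IV. Groups did not overlap in 2.74% of all tiles in IFC against SO and in 7.31% in IFC against SOA. IFC was lower than SO by 18.8 points (difference -18.8, adjusted p of 0.000209 by the logistic test; exact permutation p of 0.00794, the smallest that 4 against 5 libraries allow). It was lower than SOA by 19.1 points (difference -19.1, adjusted p of 0.000115; exact permutation p of 0.0286, the smallest for 4 against 4). Leaving out any 1 library kept both calls, with differences from -21.0 to -16.7 and from -21.5 to -17.0 points. With libraries under 10000000 calls only, which leave all 4 IFC and 2 SO libraries, IFC against SO differed by -17.7 points with an adjusted p of 0.0693.

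Within the tile the difference lay in the 50 CpGs nearer the start. In these, chr12:3850138-3854572, the IFC libraries had 63.6, 57.9, 71.2 and 57.7% and the SO libraries 84.6, 92.3, 96.9, 97.2 and 88.0%. They differed by -29.2 points between IFC and SO (adjusted p of 0.000177 by the logistic test, exact permutation p of 0.00794). Against SOA they differed by -28.7 points (adjusted p of 4.42e-05 and exact permutation p of 0.0571), with SOA2 at 70.6% among the IFC values and the other SOA libraries at 100, 96.4 and 98.1%. The other 50 CpGs differed by -0.926 and -1.81 points (adjusted p of 0.999 and 0.955). A bin of 25 CpGs centred 46.6 kb from the first start (chr12:3851762-3853450) held most of it. There 16 of 38 IFC calls were methylated (42.1%, Wilson interval 27.9 to 57.8%), against 56 of 59 in SO (94.9%), 46 of 52 in SOA (88.5%) and 58 of 60 in IV (96.7%). The single IFC libraries had 30, 22.2, 60 and 50% there, on 4 to 15 calls each. SOA2, at 54.5% (6 of 11 calls), lay among them, and the other SOA libraries had 100, 91.7 and 100%. Its neighbours on either side had 86.5% and 90.6% in IFC and 91.0 to 96.7% in the other groups. The bin and the 50 CpGs were singled out after their values were seen.

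**Figure D4:**
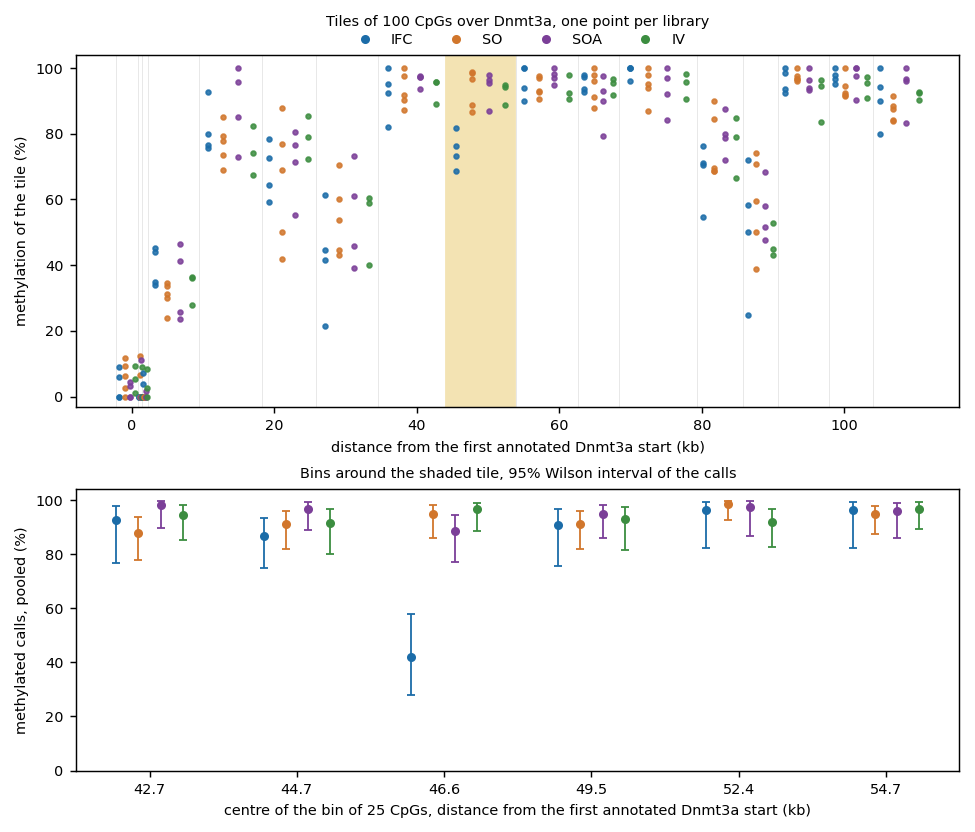
Above, methylation of each Dnmt3a tile (y axis, percent) in each library, coloured by group, against distance from the first start (x axis, kb), with the intronic tile shaded. Below, pooled methylated calls per group with 95% Wilson intervals of the calls in the 25-CpG bins around that tile. The 4 IFC libraries lie between 68.8 and 81.7% in the shaded tile and all others above 86%, and in the bin at 46.6 kb IFC has 42.1%.

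The bin is rich in repeats. Of its bases 58.7% are soft-masked, that is, marked as repeat or low-complexity in the reference, against 23.7% of the whole gene. In the masked bases of the bin 20.8% of 24 IFC calls were methylated, against 100% of 29 in SO, 83.3% of 30 in SOA and 94.9% of 39 in IV. In its other bases 78.6% of 14 IFC calls were methylated, against 90% of 30, 95.5% of 22 and 100% of 21. The 300 bases below, chr12:3853058-3853357 on the plus strand of GRCm38.p6, hold 9 CpGs in capitals and end in a run of CpG and TpG dinucleotides.
Dnmt3a intron: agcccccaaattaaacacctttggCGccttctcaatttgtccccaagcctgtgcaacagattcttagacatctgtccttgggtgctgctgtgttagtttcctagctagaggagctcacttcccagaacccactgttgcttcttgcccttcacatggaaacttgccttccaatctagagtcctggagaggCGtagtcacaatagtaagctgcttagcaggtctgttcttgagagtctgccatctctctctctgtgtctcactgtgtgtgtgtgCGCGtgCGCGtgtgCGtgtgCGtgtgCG
In this stretch 4 of 23 IFC calls were methylated, against 16 of 16 in SO, 19 of 25 in SOA and 26 of 27 in IV. The stretch lies in the bin and was likewise chosen after the values were seen. Neighbouring CpGs can share a read, so these calls need not be separate observations. Over the tile outside soft-masked bases the IFC libraries had 93.8, 94.7, 91.4 and 67.4%, the SO libraries 87.5, 96.2, 97.7, 98.5 and 88.3%, and the SOA libraries 95.8, 100, 95.8 and 96.8%. IFC4 alone then lay below the SO libraries, and all 4 IFC libraries still lay below the SOA libraries. The IV libraries had 89.7, 94.6 and 96.25%, which overlap the IFC libraries. The difference from SO was then -6.81 points (adjusted p of 0.421, exact permutation p of 0.357), while that from SOA was -10.3 points (adjusted p of 0.0199 by the logistic test, exact permutation p of 0.0286). The latter rested on IFC4, without which it was -3.82 points (adjusted p of 0.366 by the logistic test), and it also ceased to pass without SOA2 or SOA4 (adjusted p of 0.0513 and 0.142). The share of all tiles whose groups lie apart outside soft-masked bases is not given. The part of the repeats in the IFC values was not tested.

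In Dnmt1, the tile between the 2 coding starts (chr9:20952696-20959764) was called in IFC against SOA. The IFC libraries had 56.8, 46.2, 51.5 and 47.2%, the SOA libraries 67.9, 71.4, 73.3 and 63.3%, the SO libraries 66.7, 50, 71.8, 64.3 and 59.6% and the IV libraries 63.5, 45.1 and 71.9%. IFC and SOA did not overlap, and the other groups spanned both. The difference was -18.6 points (adjusted p of 0.0201 by the logistic test, exact permutation p of 0.0286), and its adjusted p was 0.054 to 0.0779 without IFC2, IFC4 or SOA2. Outside soft-masked bases, an alternative chosen after seeing the data, the difference was -23.2 points (exact permutation p of 0.0286). The share of all tiles that lie apart under that filter is not given. The tile joins 50 methylated CpGs at the second start, with 98.8% in IFC and 97.8% in SOA, to 50 with 17.4% and 13.6% towards the first. Within each set of 50 the groups differed by 0.904 and 3.82 points (adjusted p of 0.899 and 0.998, exact permutation p of 0.714 and 0.771). Of the covered positions, 40.3% lay in the methylated set in IFC and 65.0% in SOA, on average. No difference passed the test within either set, and the part of these unequal shares in the difference of the tile was not tested.

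**Figure D5:**
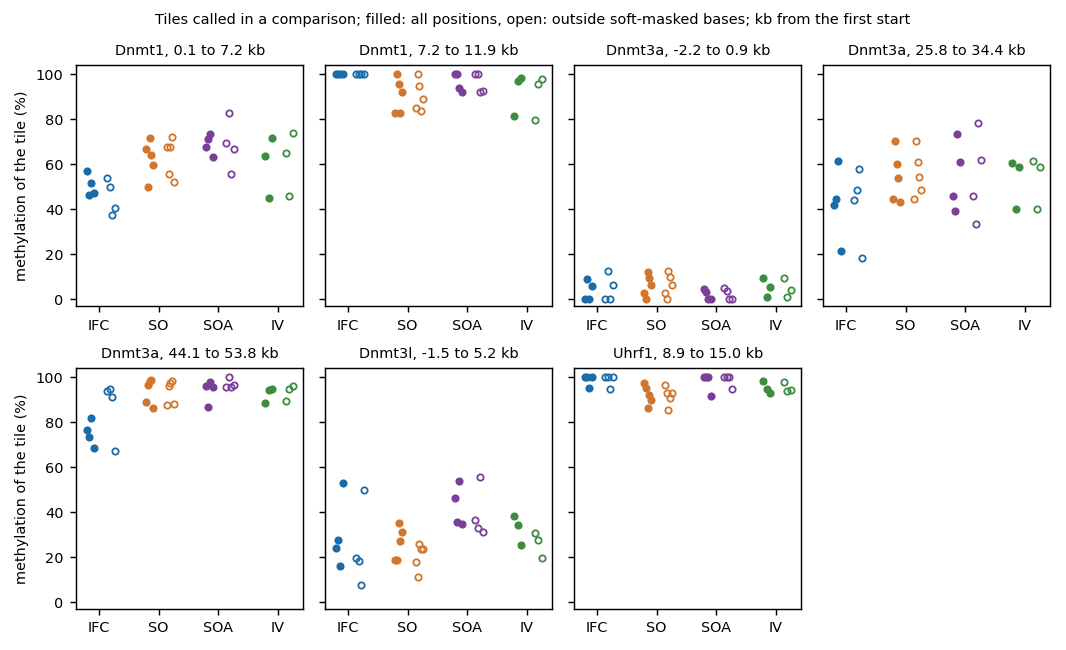
The 7 tiles of the genes called in at least 1 comparison, named by their distance from the first start, with methylation in percent (y axis) by group (x axis) and 1 point per library, filled for all positions and open for positions outside soft-masked bases. In the Dnmt3a tile from 44.1 to 53.8 kb the filled IFC points lie below those of all other groups, and 3 of the 4 open IFC points lie above 91%.

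The other called tiles differed by less. The adjoining Dnmt1 tile chr9:20947994-20952677 had 100% in all IFC libraries against 82.6, 100, 95.6, 83.0 and 92.0% in SO. IFC exceeded SO there by 9.36 points (adjusted p of 0.000903, exact permutation p of 0.0873) and SOA by 3.52 points. With the 4 IFC and 2 SO libraries under 10000000 calls only, the adjusted p for SO was 0.0849. This tile shares positions with Dnmt1 P2, so its call and that of P2 are not separate. Its 50 CpGs at P2 had 60, 100, 93.4, 67.6 and 88.9% in SO and 100% in the IFC libraries with a value. The other 50 differed by 3.64 points between IFC and SO (adjusted p of 0.167 by the logistic test). In Uhrf1, chr17:56312241-56318341 in the middle of the gene had 100, 100, 95.5 and 100% in IFC and 97.4, 95.2, 86.4, 92.2 and 89.7% in SO, an excess of 6.67 points (adjusted p of 0.0197) that was 2.53 points in the shallow libraries alone. At the first starts of Dnmt3l and Aire, chr10:78040415-78047163 had 18.8, 18.8, 35, 27.3 and 31.3% in SO. In SOA it had 46.2, 35.5, 53.8 and 34.8%, and the groups overlap by 1 library. SO was lower by 16.3 points (difference -16.3, adjusted p of 0.0437, exact permutation p of 0.0238). Outside soft-masked bases, an alternative chosen after seeing the data, the difference was -18.6 points (exact permutation p of 0.00794). There SO had 11.1 to 25.9% and SOA 31.1 to 55.6%, which do not overlap. The share of all tiles that lie apart under this filter is not given, and with all positions it was 3.80%. This tile too joins a low and a higher set of 50 CpGs, at 0 to 16.7% and 27.8 to 84.1% in the libraries with a value. The higher set, chr10:78043472-78047163, held 47.4% of the covered positions in SO and 63.6% in SOA on average. Within it SO and SOA differed by -12.8 points (adjusted p of 0.273, exact permutation p of 0.270), and the low set could not be tested because SOA3 had no value. The part of the unequal shares was not tested here either. Both first windows lie in this tile. The Aire window had 10.5, 17.6, 30.7, 24.1 and 22.7% in SO and 45.8, 26, 70 and 26.9% in SOA, which overlap. Dnmt3l P1 had 0 to 5.56% in SO and 0 to 7.69% in the SOA libraries with a value. The Dnmt3a tiles over the first start (chr12:3803828-3806869, 4.08 points between SO and SOA) and at 25.8 to 34.4 kb (chr12:3831853-3840435, -12.6 points between IFC and SOA) had overlapping groups. Leaving out single libraries ended the calls of the Uhrf1, Dnmt3l and both last-named Dnmt3a tiles, and never that of the Dnmt1 tile against SO, while its call against SOA was lost without SOA4 (2.08 points).

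The logistic test takes each call as independent, and a quasi-binomial fit that also estimates the spread between libraries called none of the gene bodies, promoters or tiles of the 5 genes. It called few anywhere: over the 4 comparisons 0 to 1.49% of all gene bodies, 0.00562 to 0.230% of all windows and 0.000502 to 0.153% of all tiles, so its 0 says nothing particular about these genes. The comparisons share libraries (SO, SOA and IFC each enter more than 1), so they do not give separate evidence of each other.

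Of a list of 34 other genes of methylation and demethylation, 30, 30, 31 and 30 gene bodies could be tested in IFC against SO, SO against SOA, SOA against IV and IFC against SOA. The shares that passed were below those of all gene bodies in each comparison (10.2%, 16.1%, 15.4% and 19.9%). In IFC against SO 1 passed: Uhrf2, a relative of Uhrf1, 2.10 points higher. In SO against SOA 3 passed: the histone methyltransferase gene Nsd1 and the glycosylase gene Tdg were 4.34 and 9.39 points higher and Usp7 3.03 points lower, a difference of -3.03. In SOA against IV 2 passed: Zbtb24, 4.52 points higher, and the demethylase gene Tet1, with a difference of -2.24 points. In these 3 comparisons the groups overlapped in every gene that passed, with exact permutation p of 0.0857 to 0.60. At an exact permutation p under 0.05 the list had 4, 2, 0 and 2 genes in the 4 comparisons, beside the 7.78%, 10.0%, 3.10% and 8.75% of all gene bodies. The 4 in IFC against SO were Mbd1, Setdb1, Tet2 and Mbd2 (exact permutation p of 0.00794 for the first 3 and 0.0317 for Mbd2). None of these passed the logistic test (adjusted p of 0.0703, 0.304, 0.0929 and 0.309). In the first 3 all IFC libraries lay above the SO libraries, which makes 3 of 30 genes whose groups do not overlap, against 3.25% of all gene bodies. In SO against SOA, SOA against IV and IFC against SOA such genes numbered 0, 0 and 2. The shares of all gene bodies there were 4.85%, 6.18% and 8.75%. In IFC against SOA 5 passed, 4 of them higher in IFC: Uhrf2 by 6.59, Nsd1 by 6.91, Tet2 by 7.40 and Tdg by 16.6 points. In Uhrf2 and Nsd1 the IFC and SOA libraries did not overlap (exact permutation p of 0.0286 each), and in the others they did. The fifth was Dppa3, whose protein shields maternal methylation in the zygote, with 45.2% ± 10.6 (SD, n = 4) in IFC and 72.0% ± 22.0 (n = 4) in SOA. Its groups overlapped, and its difference of -26.9 points (adjusted p of 0.00273 by the logistic test, exact permutation p of 0.0857) was the only one of at least 20 points, a size at which 2.38% of all gene bodies were called. Apart from Dppa3 these genes were named after their values were seen. The median differences of the list were 1.5, -0.183, 1.15 and 0.708 points, beside 0.457, 0.0927, 0.420 and 0.479 for all gene bodies.

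Across the 16 libraries, the gene bodies whose levels (less the median of each library) varied most like those of the 5 genes were Nav3 for Dnmt1 (Pearson r of 0.85), Nup85 for Dnmt3a (0.80), Ankrd34a for Dnmt3b (0.88), Grrp1 for Dnmt3l (0.87) and Nucks1 for Uhrf1 (0.87). They are the highest of 16306 gene bodies, over libraries that share depth and group, and are given as a description only.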

How the data were processed

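PBAT libraries were prepared from 16 pools of MII oocytes. Reads were trimmed with Trim Galore 0.4.4 and cutadapt 1.9.1, aligned to GRCm38 and called with Bismark 0.19.0, per the submitters' processing notes, and duplicates were removed. For each covered cytosine the authors deposited 2 counts, of calls read as methylated and as unmethylated, beside the percent methylated. A C>T difference of the CBA parent can be read as unmethylated. The 5 genes and all gene lists were chosen with earlier results of these data known. From the deposited counts, gene bodies, promoter windows (1000 bases each side of a start, starts within 1000 bases of the first merged with it) and tiles of 100 CpGs were quantified with GENCODE starts. At least 5 covered positions were required in every library compared. Groups were compared by logistic regression with a likelihood-ratio test and Benjamini-Hochberg adjustment over all features (threshold 0.05), after the study's methods, and by exact permutation of the libraries. Of the pathway genes, Dppa3 was named by a called difference of at least 20 points and the others after their values were seen. The nearest gene bodies were named by Pearson r. The fits were tested on simulated data. Alternatives included other windows, tiles and depths, limma 3.58.1 and a quasi-binomial fit (Python 3.11.15, numpy 2.4.6, scipy 1.17.1, statsmodels 0.14.6, matplotlib 3.10.9, R 4.3.3). Replicates were separate pools, and the depth of 5218053 to 23065411 calls left most positions with 1 call.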

Additional observations from a re-analysis of the deposited data

Results flagged for a closer look

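Of 80 groups of 4 or 5 libraries in which a gene body, promoter window or called tile of the 5 genes was measured, 13 held a library far from the others by Dixon's criterion, where chance gives about 1 in 20. In most of them all the other libraries were at 0 or at 100%, so that a single differing position sets a library apart. Among the low windows these were SOA3 in Dnmt1 P1 (14.3%), SO4 in Dnmt3l P1 (5.56%) and SOA4 in Uhrf1 P1 (0.896%), with the other libraries at 0. Among the high windows, with the others at 100%, these were IFC3 in Dnmt1 P3 (90.9%), Dnmt3a P10 (90%) and Uhrf1 P3 (87.5%), SOA4 in Dnmt1 P4 (93.7%) and Dnmt3b P2 (98.1%), and SO3 in Dnmt3a P11 (88.9%). In the Uhrf1 tile chr17:56312241-56318341, IFC3 had 95.5% and SOA4 91.7% where the others had 100%.

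The remaining flags concern values given above. SO1 had 66.7% in Dnmt1 P2, where the other SO libraries had 93.8 to 98.7%. SOA4 had 93.3% in the Dnmt3b gene body, where the other SOA libraries had 95.8 to 96.3%, and without it the difference between SO and SOA there was 0.821 points.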

How the results depend on the processing

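The calls rest on few reads, and all of them were lost in the quasi-binomial fit, which called at most 1.49% of all gene bodies, 0.230% of all windows and 0.153% of all tiles in any comparison. Counts below are calls among the 5 genes, in the order IFC against SO, SO against SOA, SOA against IV and IFC against SOA where all are given. That fit called 0 wherever the main test had called any, and limma did so too except for 1 tile in IFC against SOA, where it called 1.26% of all tiles. Windows of 1000 bases upstream, windows of 500 bases each side and at least 20 positions left only 1, 3 and 3 windows to test in IFC against SO, so the 0 promoters called there say little (3.05%, 3.61% and 7.35% of all windows were called), and with 20 positions 0 of 16 tiles tested were called in SO against SOA (10.2% of all tiles) and 1 of 13 in IFC against SOA (13.2%). Requiring 3 calls per position left nothing to test. Tiles of 50 CpGs gave 1 call among 66 in IFC against SO (1 of at least 20 points; 2.26% of all) and 2 among 62 in IFC against SOA (1; 6.89%), and shifted tiles gave 3 among 41 in SOA against IV (6.51%). With whole spans, 2 bodies were called in SOA against IV (26.4% of all). In IFC against SOA the Dnmt3l call was lost (-1.68, adjusted p of 0.605 by the logistic test) and Dnmt3b was called instead, 3.5 points higher in IFC (adjusted p of 0.00384; 30.4% of all spans called), with 97 to 99.2% in IFC and 88.6 to 96.9% in SOA, which do not overlap. That call rested on SOA2, without which (a step chosen after seeing the data, as was leaving out single libraries outside soft-masked bases) the difference was 1.61 points (adjusted p of 0.0769 by the logistic test). The share of all spans whose groups do not overlap is not given. Over whole spans the differences reversed to 0.127 for Dnmt3a in SO against SOA and 4.71 for Uhrf1 in SOA against IV. Thinned libraries gave 0 bodies in SOA against IV and IFC against SOA, and 1, 1 and 2 tiles in IFC against SO, SO against SOA and IFC against SOA, the last with 1 of at least 20 points. Calls over all features fell as well, to 5.66% and 13.4% of gene bodies and to 1.9%, 3.52% and 6.64% of tiles in those comparisons. Thinning reversed Dnmt3l (-0.979) and Uhrf1 (1.11) in IFC against SO and Dnmt1 (0.784) in IFC against SOA.

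With libraries under 10000000 calls (4 IFC, 2 SO and 3 SOA), the tiles called over the genome fell to 1.99%, 2.53% and 7.47%. These shares are for IFC against SO, SO against SOA and IFC against SOA. In IFC against SOA 0 bodies (13.5% of all gene bodies) and 2 tiles (1 of at least 20 points) were called. In IFC against SO 0 tiles were called, and in SO against SOA 1 tile of at least 20 points. Reversed were Dnmt1 (-1.36) and Uhrf1 (0.247) in IFC against SO, and Dnmt1 (0.578) and the Dnmt3a tile at the first start (-1.24) in SO against SOA. Libraries over 10000000 calls include only 1 of SOA, so with that setting SOA has no replicate and is compared with 3 of SO or 3 of IV. There SOA against IV gave 2 bodies, 2 of 25 promoters and 3 of 43 tiles (12.4%, 1.71% and 5.14% of all), and SO against SOA 2 of 24 promoters (3.01%) and 1 tile of at least 20 points. Reversed with the same libraries were Dnmt3a in SO against SOA (1.30), and Dnmt3b (-1.67) and Dnmt3a (-4.60) in SOA against IV. Reference CpGs alone gave 2 of 15 promoters (4.69% of all) and 1 tile of at least 20 points in IFC against SO, 4 of 39 tiles in SO against SOA (9.17%) and 1 tile of at least 20 points in IFC against SOA, and reversed Dnmt3l (-1.23) and Uhrf1 (0.340) in IFC against SO. Outside soft-masked bases, an alternative chosen after seeing the data, 0 promoters were called in IFC against SO and SO against SOA (4.38% and 4.97% of all), 2 of 39 tiles in SOA against IV (5.03%) and 7 of 39 in IFC against SOA (9.82%; 1 of at least 20 points), and Dnmt3l in IFC against SO was -1.14. Differences between pooled calls reversed Dnmt3l (-5.68) and Dnmt3a (0.0831) in IFC against SO, and Dnmt3b (-0.491) and Dnmt3a (-1.71) in SOA against IV, and gave 1 of 7 promoters of at least 20 points in SO against SOA (1.4% of all). The single tiles of at least 20 points given here, and with the block below, stand beside 1.18 to 1.34%, 2.06 to 2.07% and 3.86 to 4.21% of all tiles called at that size under the same settings in IFC against SO, SO against SOA and IFC against SOA. The cause of these changes was not tested.

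The replicate numbers do not pair the libraries: over 15 same-numbered pairs the deviations in 195700 tiles correlated at -0.009 to 0.0685. With the replicate number as a block, 0 bodies were called in SOA against IV and IFC against SOA (12.8% and 17.5% of all), 0 of 8 promoters in SO against SOA (6.06%), 1 tile of at least 20 points in IFC against SO and 1 of 39 tiles in SOA against IV (2.88%), and Uhrf1 in IFC against SO was 0.459.

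Leaving out 1 library at a time, called bodies ranged over 0 to 1, 0 to 1, 0 to 2 and 0 to 1, promoters over 0 to 2, 0 to 1, 0 to 2 and 0 to 1, and tiles over 1 to 3 in SO against SOA, 0 to 2 in SOA against IV and 2 to 7 in IFC against SOA. Over all features the shares ranged from 7.69 to 12.4%, 12 to 17.8%, 3.55 to 21.4% and 13.5 to 20.5% for bodies and from 3.54 to 4.62%, 3.68 to 5.54%, 2.08 to 6.00% and 4.46 to 5.97% for promoters in the same order, and from 5.10 to 10.3%, 1.24 to 12.1% and 7.47 to 11.2% for tiles in the last 3 comparisons. Tiles of at least 20 points ranged over 0 to 1 in IFC against SO, SOA against IV and IFC against SOA. With all libraries, 1.12%, 0.350% and 3.83% of all tiles were called at that size in these comparisons. Body differences that changed sign ranged, for Dnmt1, from -0.798 to 0.935 in IFC against SO, -1.35 to 0.387 in SO against SOA and -0.902 to 0.204 in IFC against SOA. For Dnmt3a they ranged from -2.38 to 0.639 in IFC against SO and -1.83 to 1.89 in SOA against IV, and for Dnmt3b from -0.142 to 1.13 in SOA against IV. For Dnmt3l they ranged from -1.58 to 2.63 in IFC against SO, -1.39 to 6.51 in SOA against IV and -4.37 to 0.121 in IFC against SOA. For Uhrf1 they ranged from -1.40 to 1.33, -3.44 to 0.409, -2.88 to 0.962 and -3.50 to 0.350 in the 4 comparisons. Without IV1 the counts in SOA against IV were 1 body, 0 promoters and 0 tiles, and over all features 3.55%, 2.08% and 1.24%. Without SOA4 the share of all tiles was 5.1%, 2.35% and 7.47% in SO against SOA, SOA against IV and IFC against SOA, and without IV2 or IV3 it was 9.97% and 12.1% in SOA against IV. Without SOA3 the counts were 0 bodies in SOA against IV and in IFC against SOA (13.1% and 19% of all gene bodies). In SO against SOA 1 tile was called without SOA3, where 5.10 to 10.3% of all tiles were called over the libraries left out.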
